A study of Mus musculus with 12 samples.

Results

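Natural killer (NK)-type receptors and their adaptors were followed in cultured mouse helper T cells. The group holds 9 mouse genes, Tyrobp, Fcer1g, Cd244a, Klrd1, Klrk1, Klrb1c, Klrc1, Klrg1 and Ncr1. They were chosen with earlier results of these data known. A gene was taken as present when the accession of at least 1 non-control probe of the array mapped to it. All 9 of 9 were found, on 12 probes, among 17178 genes named on the array. All 9 also passed the filter on dim probes, among 14705 genes tested, but only 6 had a main probe well above background on all 12 arrays. Klrk1 passed with 9 arrays, Ncr1 with 7 and Klrc1 with 4.

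NK cells decide whether to kill a target by weighing activating against inhibitory receptors, and activated T cells can take up part of the same receptor set. Many activating receptors have no signalling tail of their own. They pair in the membrane with an adaptor such as Tyrobp (DAP12), the Fc receptor gamma chain Fcer1g, or Hcst (DAP10). Tyrobp and Fcer1g carry activation motifs that recruit the kinases Syk and Zap70. Inhibitory receptors such as the Klrd1-Klrc1 dimer (CD94-NKG2A) instead recruit phosphatases.

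The arrays measured helper T cells of C57BL/6 mice aged 7 weeks, of 2 genotypes, Dgcr8-deficient and wild type. Dgcr8 is the RNA-binding partner of Drosha, needed to make most microRNAs. Into Dgcr8-deficient cells went miR-29b or, in the control arm, a control miRNA. Into wild-type cells went miR-29 inhibitors or control inhibitors. All were electroporated on days 1 and 4. All cells had been stimulated through CD3 and CD28 for 65 hours and grown with IL-2 for 48 hours more, and RNA was taken on day 5. There were 3 arrays in each of the 4 groups. The titles number the arrays of each group 2, 3 and 4. Arrays of 1 genotype with the same number were taken to come from 1 mouse, called by that number below. The labels do not state this pairing. The same number was taken to mark different animals in the 2 genotypes. How the Dgcr8 deletion was made, and which cells of the mice carried it, is not given in the sources used here. In bulk RNA, fewer cells of a type and less RNA per cell cannot be told apart.

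The miR-29 family is shown because its members are what was added or blocked. The 3 mature forms, from RefSeq (GRCm38.p6), share bases 2 to 8, the seed that pairs with target messages and is given in capitals:
mmu-miR-29a-3p: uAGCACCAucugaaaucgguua
mmu-miR-29b-3p: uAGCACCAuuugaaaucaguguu
mmu-miR-29c-3p: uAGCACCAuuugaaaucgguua
The 3 forms differ outside the seed only.

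Each level is given as log2 of the signal after division by the array's own 75th percentile, so a step of 1 is a doubling of signal. From 27287 to 31405 probes of an array passed the scanner's test of being well above background, and saturation marked 0 spots. Dgcr8 itself lay between -1.25 and -0.15 on the 6 Dgcr8-deficient arrays and between -0.16 and 1.01 on the 6 wild-type arrays. The 2 ranges overlapped slightly, and the difference of the controls (-1.06 ± 0.39 SE) did not pass the test (limma, adjusted p = 0.0754). In 5 of 25 alternative analyses it did: the authors' deposited log2 values (-1.04), the mouse as a block (-1.06), the slide (-0.94) or the scan day (-1.06) as a block, and without Dgcr8-deficient control 4 (-1.34; limma, adjusted p = 0.0485, 0.0460, 0.00535, 0.00152 and 0.0471). The slide block compares the genotypes only within slides that held both, and its p mostly does not measure the spread between mice. All 10 of 10 T cell markers, among them Cd3e, Cd4 and Thy1, were well above background on all 12 arrays. Their summed signal, as multiples of that percentile, was 443.7 to 446.3 in Dgcr8-deficient controls and 503.1 to 626.8 in wild-type controls. With miR-29b it was 575.5 to 633.4, and with inhibitors 571.9 to 599.3. Of the 10, 2 were called between the controls, Cd28 higher (1.25 ± 0.40) and the kinase Lck lower (-0.67 ± 0.20; limma, adjusted p = 0.0492 and 0.0351). Of all genes tested, 22.3% were called. The call of Cd28 was lost without Dgcr8-deficient control 2 or 4, miR-29b replicate 2 or 3 or any 1 wild-type array, at differences of 0.91 to 1.49 (limma, adjusted p up to 0.165). It was also lost with quantile normalization, with no filter on dim probes, with the mean of a gene's probes, with every probe tested and with the groups compared alone. That of Lck was lost without any Dgcr8-deficient control, wild-type control 2 or 4 or inhibitor replicate 2 or 4, at -0.76 to -0.55 (limma, adjusted p up to 0.131). It was also lost with normexp, with quantile normalization, in the authors' deposited log2 values, with the groups compared alone and without both arrays of Dgcr8-deficient mouse 3. Cd8a, the only one of 2 CD8 T cell markers tested, did not pass the test between genotypes (0.26 ± 0.37, limma, adjusted p = 0.712).

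**Figure D1:**
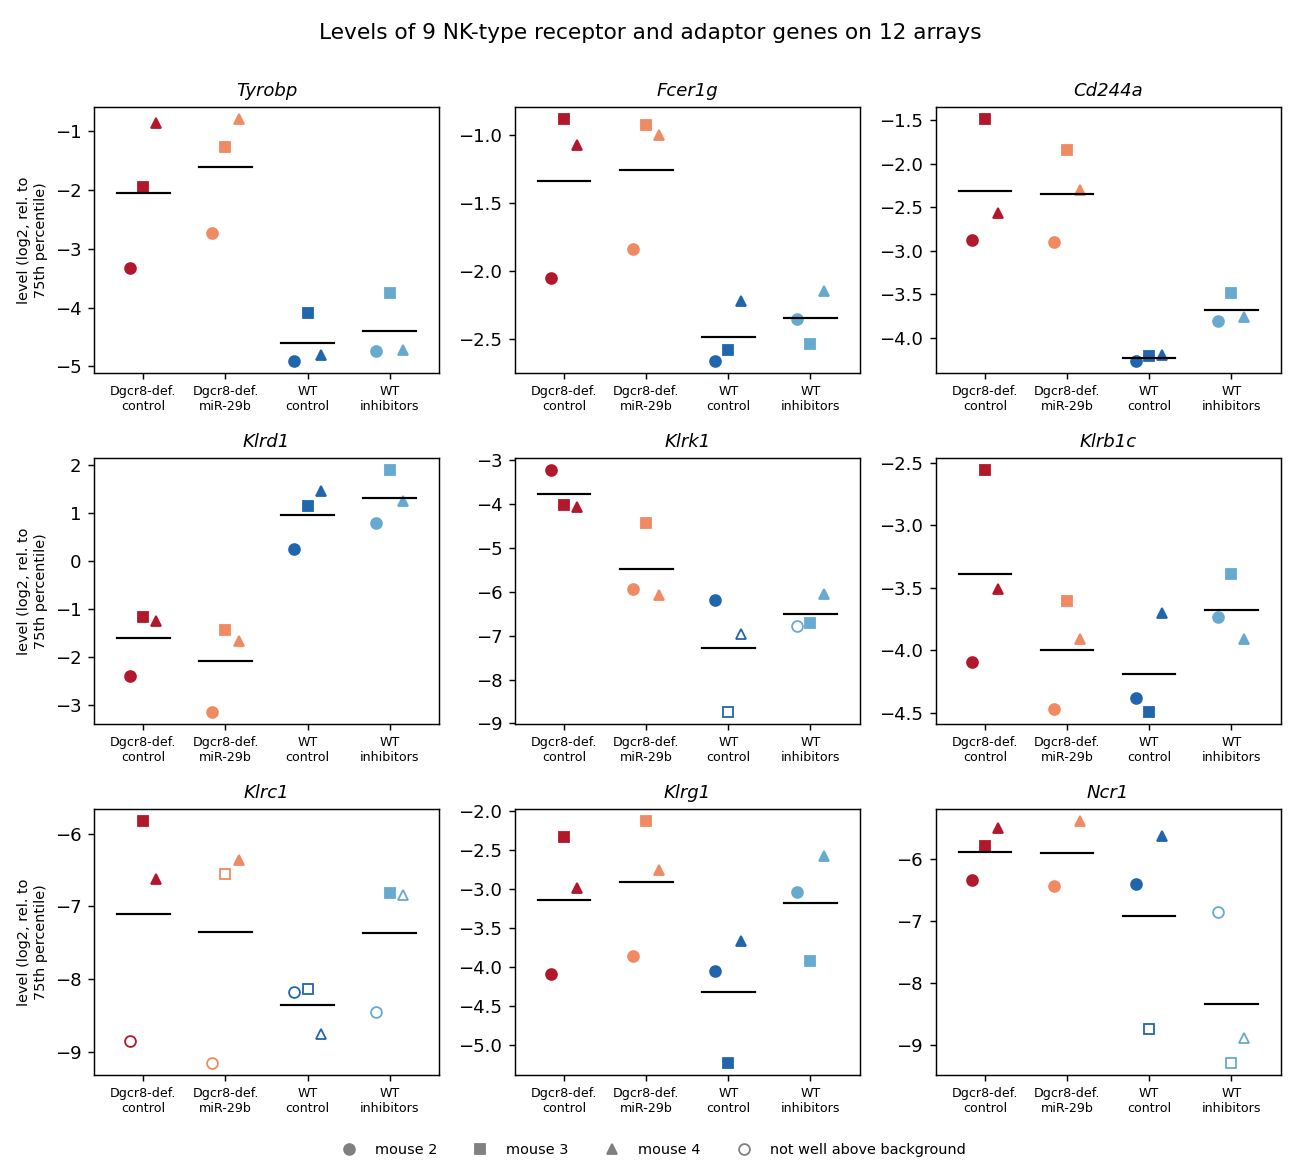
Level of each gene (log2, with the array's 75th percentile at 0) on the 12 arrays, 1 point per mouse, with the group mean as a bar; open points were not well above background. Tyrobp, Fcer1g and Cd244a lie higher and Klrd1 lower on all 6 Dgcr8-deficient arrays than on all 6 wild-type arrays.

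The genotype comparison set Dgcr8-deficient cells with control miRNA against wild-type cells with control inhibitors, so that genotype and kind of control oligonucleotide cannot be told apart. The adaptors Tyrobp and Fcer1g and the receptors Cd244a and Klrk1 were higher in Dgcr8-deficient cells, and Klrd1 was lower. These 5 of 9 genes passed the test (limma on all 12 arrays, Benjamini-Hochberg adjustment over all genes tested), while 22.3% of all genes tested did. The 4 higher genes stand beside a background of 9.26% of genes called higher, and the 1 lower gene beside 13.0% called lower. The remaining 4, Klrb1c, Klrc1, Klrg1 and Ncr1, did not pass the test, although 8 of the 9 differences were positive. In 1 alternative each, the differences of Klrc1 and Ncr1 turned negative, uncalled. The median difference of the 9 was 1.18 (log2), against -0.08 over all genes tested. As the 9 were chosen with earlier results of these data known, these shares are a description.

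Tyrobp is the adaptor of many activating receptors of NK and myeloid cells. Its levels were -3.33, -1.96 and -0.86 in Dgcr8-deficient controls of mice 2, 3 and 4, and -4.90, -4.09 and -4.80 in wild-type controls. Every Dgcr8-deficient array lay above every wild-type array, with mouse 2 lowest of its genotype. The difference was 2.55 ± 0.64 (SE, n = 3 per group), a 5.86-fold higher signal (limma, adjusted p = 0.0158). Its size depended on the processing. It was 1.46 with normexp background correction and 1.89 in the authors' deposited log2 values, called in both (limma, adjusted p = 0.0419 and 0.0128). The group means were -2.05 ± 1.24 (SD, n = 3) and -4.60 ± 0.44 (SD, n = 3). The call was lost by a narrow margin without Dgcr8-deficient control 4 (1.96, limma, adjusted p = 0.0550), wild-type control 2 (2.40, adjusted p = 0.0571), wild-type control 4 (2.45, adjusted p = 0.0550), or both arrays of Dgcr8-deficient mouse 3 (2.51, adjusted p = 0.0547).

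Fcer1g is the gamma chain of the high-affinity IgE receptor and of other Fc receptors. It reached -2.05, -0.88 and -1.07 in Dgcr8-deficient controls and -2.66, -2.58 and -2.22 in wild-type controls. The 2 groups did not overlap, although mouse 2 of the Dgcr8-deficient genotype came within the width of the wild-type range. The difference was 1.15 ± 0.33 (SE, n = 3 per group), or 2.23-fold (limma, adjusted p = 0.0302). This was the weakest of the 5 calls. It was lost in 7 of 25 alternative analyses, among them normexp background correction (0.83, limma, adjusted p = 0.0677), the groups compared alone (limma, adjusted p = 0.0649), and leaving out Dgcr8-deficient control 3 (0.93, limma, adjusted p = 0.103). Leaving out Dgcr8-deficient control 4, wild-type control 2, wild-type control 3 or both arrays of Dgcr8-deficient mouse 3 also ended it, at 1.02, 1.07, 1.11 and 0.93 (limma, adjusted p = 0.0974, 0.0975, 0.0814 and 0.10).

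The promoters of Fcer1g and the next 2 genes are printed because each gene was called higher between genotypes and has a RefSeq entry. The entries run from 250 bases before to 50 after the gene start. Capitals mark the letters of 4 motifs sought on both strands, GGTGTGA (T-box), TGTGGT (RUNX), TTCNNNGAA (STAT) and CCGGAA (ETS). The T-box and RUNX letters can overlap by a few bases.
Fcer1g, chr1:171234300-171234599, minus strand, GRCm38.p6: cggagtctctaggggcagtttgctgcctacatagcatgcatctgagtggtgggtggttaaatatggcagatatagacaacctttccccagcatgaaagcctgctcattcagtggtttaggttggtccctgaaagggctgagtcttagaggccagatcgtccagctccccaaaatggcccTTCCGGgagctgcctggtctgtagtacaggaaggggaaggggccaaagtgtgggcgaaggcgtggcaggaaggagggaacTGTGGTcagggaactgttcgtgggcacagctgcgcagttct
Cd244a, chr1:171558943-171559242, plus strand, GRCm38.p6: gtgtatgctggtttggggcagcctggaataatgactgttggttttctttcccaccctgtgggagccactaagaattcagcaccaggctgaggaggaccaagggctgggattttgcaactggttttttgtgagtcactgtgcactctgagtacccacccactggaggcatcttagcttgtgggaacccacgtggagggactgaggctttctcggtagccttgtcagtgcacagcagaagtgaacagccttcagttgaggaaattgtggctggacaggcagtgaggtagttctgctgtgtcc
Klrk1, chr6:129623815-129624114, minus strand, GRCm38.p6: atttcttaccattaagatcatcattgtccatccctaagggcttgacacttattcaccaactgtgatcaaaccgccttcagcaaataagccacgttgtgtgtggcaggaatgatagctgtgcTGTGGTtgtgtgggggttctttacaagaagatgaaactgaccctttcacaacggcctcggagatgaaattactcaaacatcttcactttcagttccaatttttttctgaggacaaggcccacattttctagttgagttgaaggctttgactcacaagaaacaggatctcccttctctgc
The RUNX letters occurred once each in the Fcer1g and Klrk1 windows and 0 times in that of Cd244a. They are present in 16.8% of all 32851 RefSeq promoters of 300 bases. The ETS letters occurred once, in Fcer1g, against 14.9% of all promoters. The T-box letters (3.98% of all promoters) and the STAT letters (8.3%) occurred in none of the 3 windows. Of the 9 genes, 6 had a promoter entry, and RUNX letters were also found in those of Klrb1c, Klrc1 and Ncr1, which did not pass the genotype test.

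Cd244a (2B4) is a receptor of the SLAM family that binds CD48. Its levels were -2.88, -1.49 and -2.57 in Dgcr8-deficient controls and -4.26, -4.21 and -4.20 in wild-type controls. The wild-type controls were nearly equal, and all Dgcr8-deficient arrays lay above them. The difference was 1.91 ± 0.35 (SE, n = 3 per group), or 3.77-fold (limma, adjusted p = 0.00306), and it was called in all 25 alternatives, at 1.02 to 2.20. A second Cd244a probe, well above background on 11 arrays, gave 0.96 ± 0.50 and was not called when every probe was tested (limma, adjusted p = 0.225). The third was not well above background on any array.

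Klrk1 (NKG2D) is an activating receptor that pairs with Hcst and, in mice, also with Tyrobp. Its levels were -3.22, -4.01 and -4.06 in Dgcr8-deficient controls, all well above background. They were -6.19, -8.73 and -6.95 in wild-type controls, where only the array of mouse 2 was well above background. The groups were far apart, but the wild-type level is thus poorly defined. The difference was 3.52 ± 0.62 (SE, n = 3 per group; limma, adjusted p = 0.00261), and with normexp background correction it shrank to 0.63 and was not called (limma, adjusted p = 0.294). In the authors' deposited log2 values it was 1.25 (limma, adjusted p = 0.00109).

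Klrd1 (CD94) is the partner that Klrc1 needs to reach the cell surface. It was the 1 gene of the group that fell, with -2.40, -1.17 and -1.24 in Dgcr8-deficient controls and 0.24, 1.15 and 1.46 in wild-type controls. Every wild-type array was above every Dgcr8-deficient array. The difference was -2.56 ± 0.52 (SE, n = 3 per group), a 5.88-fold lower signal (limma, adjusted p = 0.00565). It was called in all 25 alternatives, at -2.91 to -2.16. Klrd1 and Klrk1 are neighbours on chromosome 6, with 0 protein-coding genes between them in RefSeq, and they moved in opposite directions.

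Among the genes that did not pass, Klrg1, an inhibitory receptor for cadherins, had -4.09, -2.33 and -2.99 in Dgcr8-deficient controls and -4.05, -5.23 and -3.67 in wild-type controls. The groups overlapped (difference 1.18, 95% interval -0.14 to 2.51; limma, adjusted p = 0.203). Klrb1c (NK1.1), the classical NK marker of C57BL/6 mice, had -4.09, -2.56 and -3.51 against -4.38, -4.49 and -3.70. These overlapped too (difference 0.80, 95% interval -0.05 to 1.66; limma, adjusted p = 0.177), and a second Klrb1c probe was well above background on 1 array only. Klrc1 (NKG2A) was well above background on 2 of 3 Dgcr8-deficient control arrays and on 0 of 3 wild-type control arrays. Its measured means were -7.10 and -8.35, with groups that overlapped (limma, adjusted p = 0.379), and no fold is given for it. Ncr1 (NKp46), an activating receptor nearly restricted to NK cells, had -6.34, -5.80 and -5.50 against -6.41, -8.74 and -5.63. Its lowest wild-type control was not above background (difference 1.04, limma, adjusted p = 0.456). With normexp the difference of Ncr1 turned to -0.29, uncalled there as well.

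**Figure D2:**
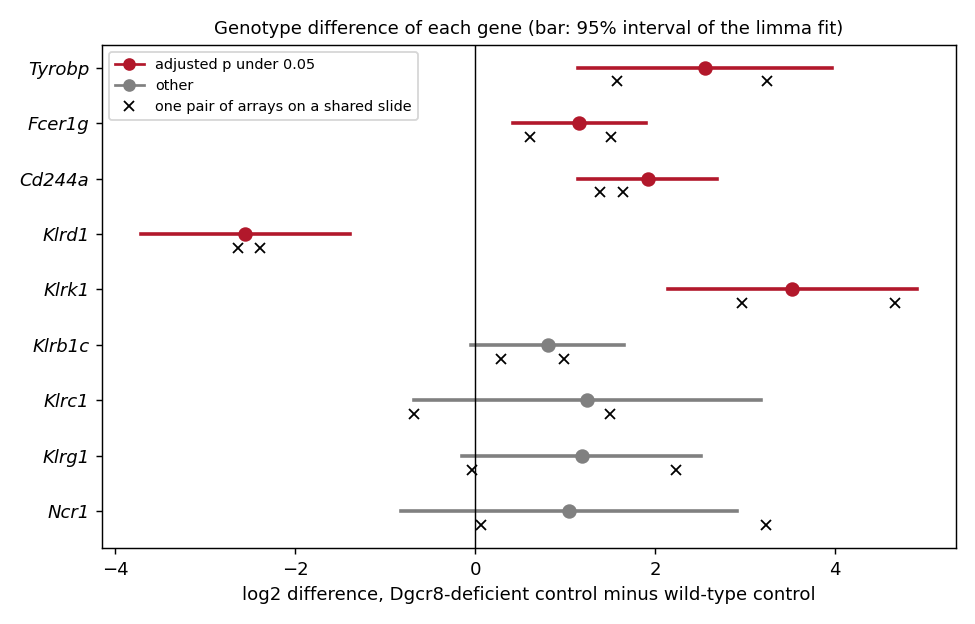
Log2 difference of Dgcr8-deficient minus wild-type controls for each gene, as a point with its 95% interval from limma (red, adjusted p under 0.05), with crosses for the 2 pairs of control arrays that shared a slide. The 5 called genes have the same sign in both crosses, from 1.57 and 3.24 for Tyrobp to -2.64 and -2.39 for Klrd1. Their control groups did not overlap, so any pair of control arrays would give that sign. The points for Klrc1 set signal against wild-type controls not well above background.

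The 2 arrays of each mouse lay on 1 slide, and 2 of the 4 slides held both genotypes. On the slide with both mice 2 the control difference was 1.57 for Tyrobp, 0.61 for Fcer1g, 1.38 for Cd244a, 2.97 for Klrk1 and -2.64 for Klrd1. On the slide with Dgcr8-deficient mouse 4 and wild-type mouse 3 it was 3.24, 1.51, 1.64, 4.66 and -2.39. All 5 directions were the same on both slides. This was fixed beforehand, since the 2 control groups did not overlap for any of these 5 genes. With slide as a block all 5 genes were called, as were 6152 of all 14705 genes tested. That fit compares the genotypes only within the 2 slides that held both. It also treats the 2 arrays of a mouse as separate, so its p-values mostly do not measure the spread between mice. Klrg1 gave -0.03 on the first slide and 2.23 on the second, Klrb1c 0.29 and 0.98, and Ncr1 0.07 and 3.23. Wild-type control 3, the control of the second slide, was not well above background for Klrk1 and Ncr1, so 4.66 and 3.23 rest on a poorly defined level. Klrc1 was not well above background in either wild-type control.

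Over both transfections, 4 of the 9 genes, Tyrobp, Fcer1g, Cd244a and Klrd1, had no overlap between all 6 Dgcr8-deficient and all 6 wild-type arrays, as had 22.9% of all genes tested. In the order of the 4 group means, the step between genotypes was the only one without overlap for Tyrobp, Fcer1g and Klrd1. For Cd244a the 2 wild-type groups were also apart. For Klrk1 only the step from Dgcr8-deficient controls to the miR-29b group was without overlap. For Klrb1c, Klrc1, Klrg1 and Ncr1 all neighbouring groups overlapped. Within Dgcr8-deficient controls, mouse 2 had the lowest level of 8 of the 9 genes, all but Klrk1, which was highest there. Mouse 2 was lowest for 38.4% of all genes tested. Without that array all 5 calls stood, with Tyrobp at 3.19 and Klrd1 at -2.16.

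Markers of other cell types also differed between the genotypes. Each list below stands beside 22.3% of all genes tested called, 9.26% higher and 13.0% lower. Of 10 B cell markers, 9 were tested, and 7 rose in Dgcr8-deficient controls and 0 fell. Blnk, a B cell linker protein, rose by 6.24 ± 0.53, Ms4a1 (CD20) by 5.86 ± 0.57 and Cd79b by 3.83 ± 0.34 (limma, adjusted p = 3.58e-05, 8.14e-05 and 4.65e-05). Cd22 rose by 3.74 ± 0.45 and Cd79a by 1.44 ± 0.21 (limma, adjusted p = 0.00026 and 0.000758). Their summed signal was 8.08 to 11.5 in Dgcr8-deficient controls, 8.61 to 12.9 with miR-29b, 0.437 to 0.653 in wild-type controls and 0.586 to 0.831 with inhibitors. Pax5, which defines the B lineage and was picked out after its values were seen, was equally dim in both control groups (mean -5.51 in each, difference 0.00; limma, adjusted p = 1). The part of B cell RNA in the differences above was not tested.

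NK cell markers outside the 9 genes gave 2 calls of 14 tested, of 16 listed, against 22.3% of all genes tested. Klra7, an inhibitory Ly49 receptor, rose by 2.85 ± 0.68 and the low-affinity Fc receptor Fcgr3 fell by 2.23 on the log2 scale (limma, adjusted p = 0.0124 and 0.0348). Their summed signal was 23.2 to 37.1 in Dgcr8-deficient controls, 11.7 to 20.5 with miR-29b, 13.6 to 21.1 in wild-type controls and 18.0 to 25.3 with inhibitors. Nkg7, a granule membrane protein, and the kinase Txk, with the highest mean levels in the list, did not pass (0.95 and -0.03; limma, adjusted p = 0.0706 and 0.966), although Nkg7 did in 4 of 25 alternatives. In wild-type controls 4 of the 14 were above background on no array. The part of NK cells in these differences was not tested.

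Of 11 myeloid and dendritic markers tested (16 listed), 3 were called, against 22.3% of all genes tested. Mpeg1, a pore-forming protein of phagocytes, rose by 6.12 ± 0.34. The integrin Itgax rose 4.18-fold under the main background subtraction, with wild-type controls set to a floor. The macrophage marker Adgre1 (F4/80) fell by 2.72 on the log2 scale, and the other 8 did not pass (limma, adjusted p = 3.13e-06, 0.00826 and 0.00298 for the 3). No wild-type control was well above background for Itgax. Each was set to the lowest signal well above background on its array, or kept its own reading where higher. A spot not well above background can read above that floor, so 4.18-fold is not a strict lower bound. The call of Itgax was lost with normexp, where the difference was 0.26 on the log2 scale (limma, adjusted p = 0.627). The summed signal of the 11 was 12.2 to 14.1 in Dgcr8-deficient controls, 8.23 to 11.5 with miR-29b, 10.3 to 18.8 in wild-type controls and 12.6 to 18.3 with inhibitors. Of 6 mast cell and basophil markers tested (8 listed), Il1rl1 fell by 0.96 on the log2 scale (limma, adjusted p = 0.0278). That call was lost without Dgcr8-deficient control 2 or 4 or wild-type control 2 or 4 (limma, adjusted p up to 0.107). It was also lost with normexp (-0.72), with the mouse as a block (limma, adjusted p = 0.0624) and with the groups compared alone (limma, adjusted p = 0.0783). Ms4a2 was above background on 0 arrays of either control group. Their sum was 0.367 to 0.585 in Dgcr8-deficient controls, 0.346 to 0.531 with miR-29b, 0.505 to 0.653 in wild-type controls and 0.579 to 0.704 with inhibitors.

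All 3 NKT and gamma-delta T cell markers tested, of 8 listed, were called. The kinase Blk rose by 2.18 ± 0.29 and the scavenger receptor Cd163l1 by 2.82 ± 0.61, while Sox13 fell by 3.05 on the log2 scale (limma, adjusted p = 0.000448, 0.00747 and 0.00204). With normexp background correction the marker calls of Blk (0.23), Itgax (0.26), Cd79a (0.39) and Klra7 (0.68) were lost, and that of Klra7 also without both arrays of Dgcr8-deficient mouse 3. The sum of the 3 was 0.361 to 1.38 in Dgcr8-deficient controls, 0.338 to 1.15 with miR-29b, 0.156 to 0.207 in wild-type controls and 0.162 to 0.179 with inhibitors. The part of myeloid, mast, NKT or gamma-delta cells in the differences of the 9 genes was not tested. Neither was the part of B cell RNA in the rise of Blk.

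**Figure D3:**
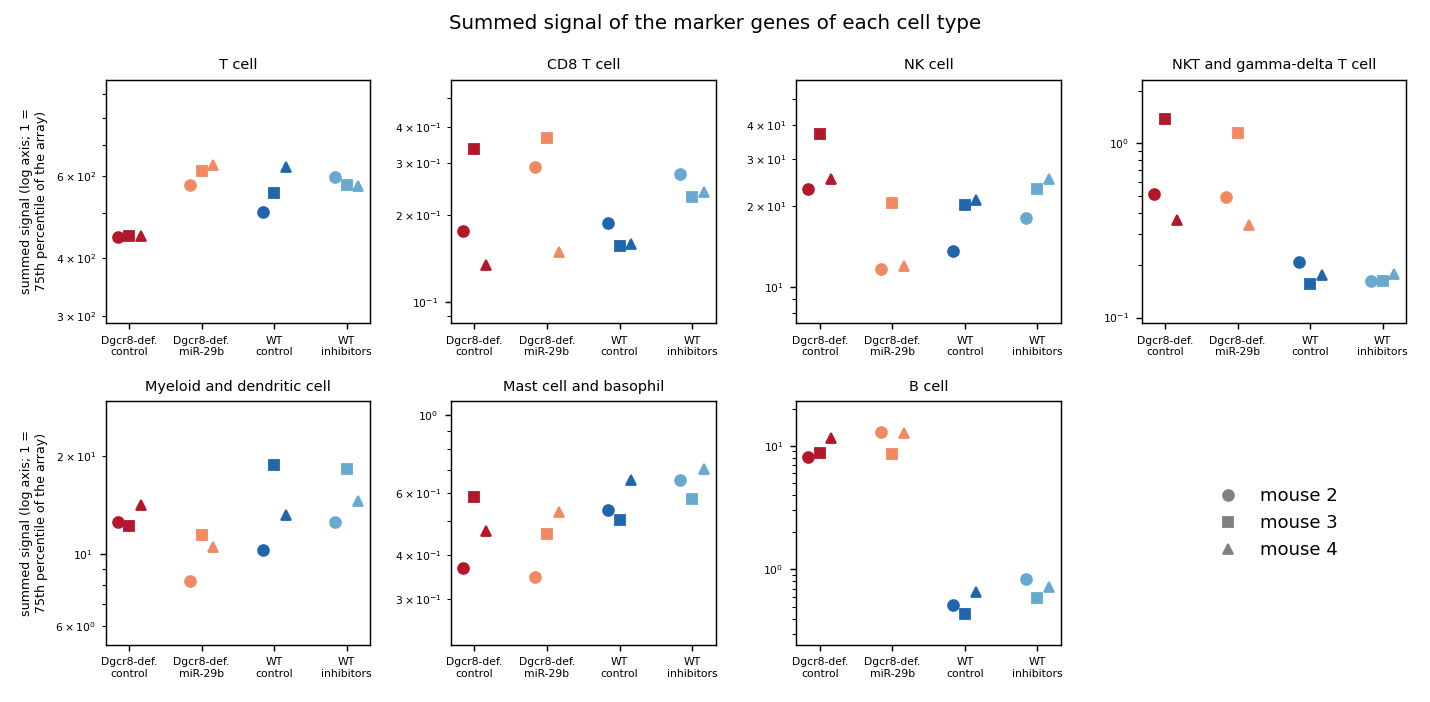
Summed signal of the tested markers of each cell type (log axis, in multiples of the array's 75th percentile) on the 12 arrays, 1 point per mouse. B cell markers sum to 8.08 or more on every Dgcr8-deficient array and to 0.831 or less on every wild-type array.

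The other NK receptors, 21 tested of 31 listed, gave 4 rises and 2 falls (median 0.04, log2, against -0.08 over all genes tested). Of all genes tested, 9.26% were called higher and 13.0% lower. Klra7 (above), Klrb1a, the paired receptor Pilrb1 and the collagen receptor Lair1 rose, by 1.48 ± 0.46, 1.01 ± 0.27 and 1.37 ± 0.32 for the last 3. Cd226 (DNAM-1), an activating receptor for nectins, fell by 2.42 on the log2 scale, with Fcgr3 the second fall. The adjusted p from limma was 0.0417 for Klrb1a, 0.0221 for Pilrb1, 0.0116 for Lair1 and 0.00876 for Cd226. Several of these calls were lost when 1 array was left out, though the differences kept their sign in each such run. That of Klrb1a was lost in 13 of 25 alternatives, among them normexp (0.06) and leaving out Dgcr8-deficient control 3 or 4, miR-29b replicate 3, any wild-type control, or inhibitor replicate 2 or 4 (limma, adjusted p up to 0.14, differences 1.17 to 2.07). Pilrb1 was lost without Dgcr8-deficient control 2 or 3 or wild-type control 2 or 4 (limma, adjusted p up to 0.0859, differences from 0.88). It was also lost with the mouse as a block (limma, adjusted p = 0.0683) and without both arrays of Dgcr8-deficient mouse 3 (0.89, limma, adjusted p = 0.0789). Fcgr3 was lost without any Dgcr8-deficient control, wild-type control 3 or 4, or inhibitor replicate 4 (limma, adjusted p up to 0.123, differences from -2.56 to -1.83). Lair1 was lost without wild-type control 4 (limma, adjusted p = 0.0508), and Cd226 when the mean of its probes was tested (limma, adjusted p = 0.0574).

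Signalling partners, 25 tested of 29 listed, gave 5 rises and 3 falls, at a median of -0.10. Beside them stand 9.26% of all genes tested called higher and 13.0% called lower. Among the rises were the kinase Syk (2.27 ± 0.44), Plcg2 (1.63 ± 0.30), Lat2 (1.52 ± 0.23) and Sh3bp2 (1.81 ± 0.53), with adjusted p of 0.00409, 0.00312, 0.000955 and 0.0312 by limma. B cells also express Syk, Plcg2 and Lat2, and the part of B cell RNA in these rises was not tested. The falls included the T cell kinase Lck (-0.67 ± 0.20, limma, adjusted p = 0.0351) and the adaptor Hcst (-1.41 ± 0.34, limma, adjusted p = 0.0123). Hcst lies next to Tyrobp on chromosome 7, with 0 protein-coding genes between them, and fell where Tyrobp rose. Both pair with Klrk1. The call of Hcst was lost without wild-type control 4 (limma, adjusted p = 0.0529). That of Syk was lost with normexp (1.15, limma, adjusted p = 0.0589). That of Sh3bp2 was lost without both arrays of Dgcr8-deficient mouse 3 and without Dgcr8-deficient control 2 or 3 or any wild-type control (limma, adjusted p up to 0.11, differences 1.49 to 2.31).

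Receptors that signal through Tyrobp or Fcer1g, 17 tested of 24 listed, gave 2 rises and 1 fall at a median of -0.10. Of all genes tested, 22.3% were called. With the mouse as a block only the fall was called, 1 of 17, beside 3015 of all 14705 genes tested. The rises were Pilrb1 and Clec4d, a lectin that signals with Fcer1g, and the fall was Fcgr3. With wild-type controls set to the same floor as for Itgax, Clec4d was 2.07-fold higher, under the main background subtraction only (limma, adjusted p = 0.021). With normexp the Clec4d difference was -0.12 and uncalled, and the call was also lost without Dgcr8-deficient control 2 or wild-type control 2 or 3 (limma, adjusted p up to 0.078). The authors' deposited log2 values (0.39) and the mouse as a block (1.37) gave no call either (limma, adjusted p = 0.115 and 0.164). Ligands of the receptors among the 9 genes, 9 tested of 20 listed, gave 0 calls, with 9 not past the test, and H2-T23 (Qa-1), the ligand of the Klrd1-Klrc1 dimer, had the smallest p of them (0.57 ± 0.24; limma, adjusted p = 0.117, called in 4 of 25 alternatives). The SLAM family, 10 tested of 11 listed, gave 2 rises and 1 fall. Slamf7 rose by 3.02 ± 0.35 and Slamf8 by 3.96 ± 0.43, and Cd84 fell by 0.96 on the log2 scale (limma, adjusted p = 0.000222, 0.000143 and 0.00436). Slamf7 is separated from Cd244a on chromosome 1 by 1 protein-coding gene, Ly9.

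Transcription factors and cytokine receptors of the NK-receptor programme, 23 tested of 27 listed, gave 8 rises and 0 falls (median 0.39). Of all genes tested, 9.26% were called higher and 13.0% lower. Eomes, a T-box factor of NK and cytotoxic T cells, rose by 4.61 ± 0.21 (limma, adjusted p = 1.31e-06), and Zeb2, a factor of late effector cells, by 2.71 ± 0.28 (limma, adjusted p = 0.000108). The receptor chains Il18r1, Il12rb2 and Il12rb1 rose by 2.36 ± 0.30, 2.24 ± 0.24 and 1.29 ± 0.23 (limma, adjusted p = 0.000346, 0.000154 and 0.00238). These 5 were called in every alternative run.

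**Figure D4:**
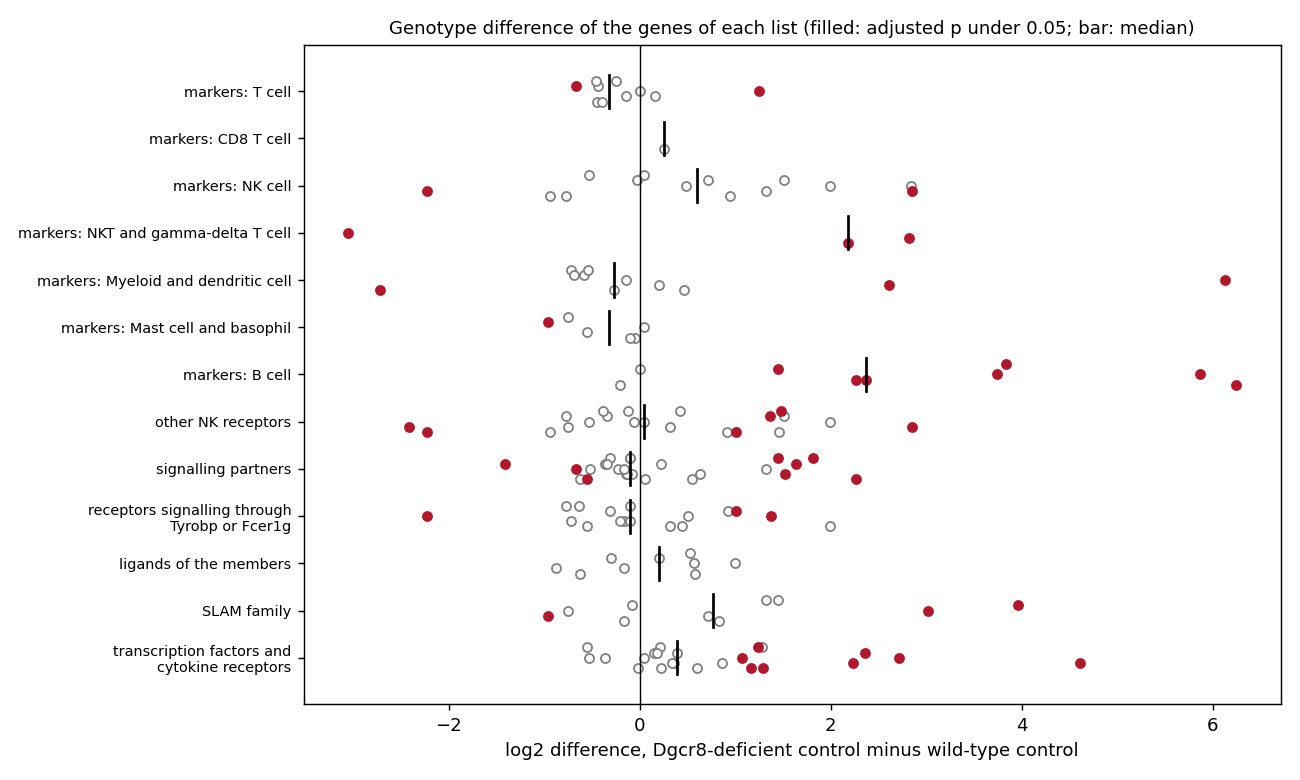
Log2 difference of Dgcr8-deficient minus wild-type controls for every tested gene of each list (filled points, adjusted p under 0.05 by limma; bar, median). B cell markers reach 6.24 (Blnk), and the called transcription factors and cytokine receptors all lie above 0, up to 4.61 for Eomes.

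The second comparison asked what miR-29b changed in Dgcr8-deficient cells, with arrays of the same number paired as 1 mouse. It shares the Dgcr8-deficient controls with the genotype comparison, which in turn shares the wild-type controls with the inhibitor comparison. None of the 9 genes passed the test (limma, 0 called and 1 at an unadjusted p under 0.05), against 2.3% of all genes tested. With the mouse as a block 20.7% of all genes passed and still 0 of the 9. The median change was -0.04, against 0.07 over all genes.

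Klrk1 had the largest change. It went from -3.22, -4.01 and -4.06 in controls to -5.93, -4.42 and -6.08 with miR-29b in mice 2, 3 and 4, lower by 2.71, 0.40 and 2.02 on the log2 scale. All 3 mice moved the same way and the 2 groups did not overlap, although mouse 3 changed little. The change was -1.71 ± 0.62 (95% interval -3.09 to -0.33; limma, adjusted p = 0.226). It was called only in the authors' deposited log2 values, at -0.95 (limma, adjusted p = 0.0253), and over all 24 alternatives it ran from -2.37 to -0.56 (limma, adjusted p = 0.0253 to 0.742).

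Klrd1 with miR-29b was -3.13, -1.44 and -1.66, lower than its own control in 3 of 3 mice by 0.27 to 0.73 (log2). Klrb1c, at -4.47, -3.61 and -3.91, was also lower in 3 of 3 mice, by 0.38 to 1.04. Tyrobp, at -2.74, -1.28 and -0.80, was higher in 3 of 3 mice, by 0.06 to 0.68, and Klrg1, at -3.86, -2.13 and -2.76, by 0.20 to 0.23. The changes were -0.47, -0.61, 0.44 and 0.22, none of them past the test (limma, adjusted p = 0.811, 0.569, 0.878 and 0.955). Their 95% intervals all included 0, from -1.63 to 0.69 for Klrd1, -1.46 to 0.25 for Klrb1c, -0.97 to 1.86 for Tyrobp and -1.10 to 1.55 for Klrg1.

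Fcer1g, at -1.84, -0.92 and -1.0, changed by 0.08 (95% interval -0.66 to 0.82). Cd244a, at -2.90, -1.84 and -2.30, changed by -0.04 (95% interval -0.81 to 0.74). Klrc1 was well above background on 1 of 3 miR-29b arrays and did not pass the test. For Ncr1 the spot of mouse 3 was marked as an outlier by the scanner software and left out, so that group held 2 arrays, at -6.43 and -5.39. Its change was -0.03 (95% interval -2.12 to 2.06), and the marked spot read -2.02.

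Among the listed genes, Il18rap, Il12rb2 and Eomes fell with miR-29b, by 1.85, 1.35 and 1.15 on the log2 scale (limma, adjusted p = 0.00779, 0.0197 and 0.0218), as did Mpeg1, by 1.87 (limma, adjusted p = 0.0194). Il18rap encodes a chain of the IL-18 receptor. The other 20 of 23 transcription factors and cytokine receptors did not pass. Without the block, 0 of the 21 other NK receptors and 0 of the 25 signalling partners passed. Each of the 4 calls was lost with the Dgcr8-deficient groups fitted alone, where adjusted p reached 0.185 for Il18rap. The calls of Il12rb2 and Mpeg1 were also lost without any 1 of the 3 controls, or without miR-29b replicate 2 or 4 (limma, adjusted p up to 0.0789 and 0.0902). That of Eomes was lost with normexp, without control 3 or 4, without miR-29b replicate 2 or 4, or without both arrays of mouse 3 (limma, adjusted p up to 0.0743 with 1 array left out). The NK marker sum was lower with miR-29b than in controls (above), and Nkg7 made up much of it. Nkg7 alone gave 15.2 to 23.8 in controls and 5.23 to 12.4 with miR-29b, while the other 13 markers summed to 6.07 to 13.3 and 5.84 to 8.14, which overlap. By the test 0 of the 14 passed, with 7 of 14 changes positive and a median of -0.01. The part of Nkg7 or of NK cells in the values of the 9 genes was not tested.

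With the mouse as a block, where 20.7% of all genes passed with miR-29b, 7 of 21 other NK receptors (4 higher, 3 lower) and 7 of 25 signalling partners (5 higher, 2 lower) were called. Among them Lair1 and Pilrb1 were lower, at -1.1 and -0.91, and Sh3bp2 at -0.48 (limma, adjusted p = 0.0102, 0.0271 and 0.0171). Cd247, the T cell receptor zeta chain, Lck and the phosphatase Ptpn6 were higher, at 0.54, 0.55 and 0.45 (limma, adjusted p = 0.0125, 0.0184 and 0.0203). The block also called 11 of 23 transcription factors and cytokine receptors (6 higher, 5 lower), 4 of 10 T cell markers (all higher), 3 of 10 SLAM family genes, 2 of 9 ligands, 2 of 17 receptors that signal through Tyrobp or Fcer1g, 2 of 11 myeloid and 2 of 6 mast cell markers, and 1 of 14 NK markers, Nkg7, which was lower.

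**Figure D5:**
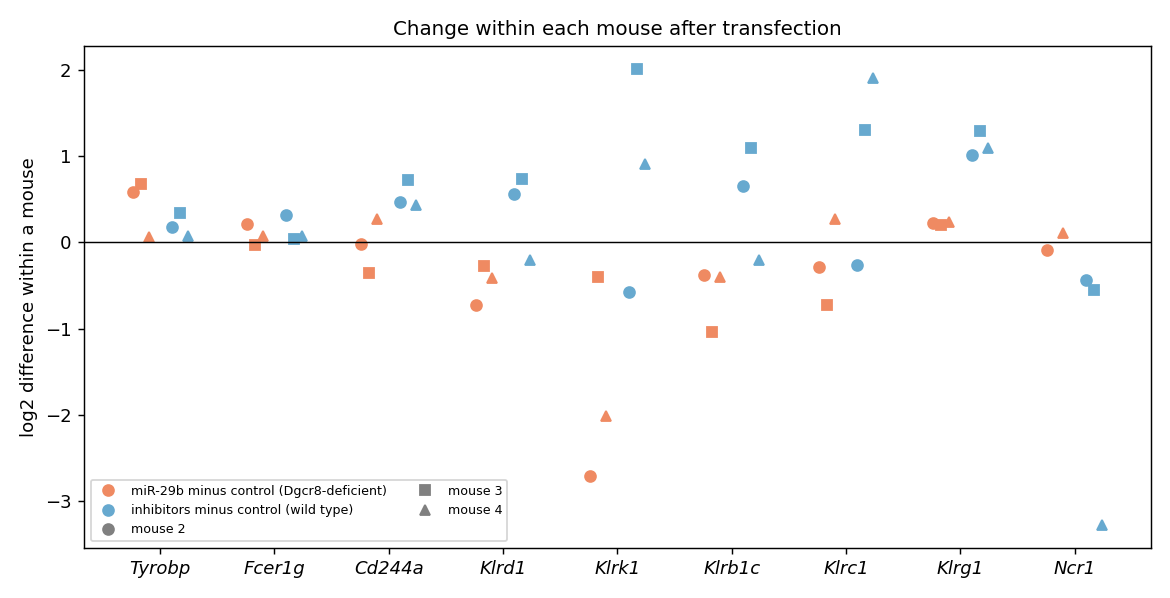
Log2 difference between both arrays of each mouse for each gene, for miR-29b minus control in Dgcr8-deficient mice and inhibitors minus control in wild-type mice, 1 point per mouse. Klrg1 rises by 1.02 to 1.30 with inhibitors in all 3 mice and by 0.20 to 0.23 with miR-29b.

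In wild-type cells, blocking miR-29 changed none of the 9 genes by the test (limma, 0 called and 0 at an unadjusted p under 0.05). Over all genes tested 0.0% were called, with 63 genes at an unadjusted p under 0.05. The sign was positive for 8 of the 9 genes, against 56% of all genes. In at least 1 alternative it turned negative for Tyrobp, Klrk1 and Klrc1, all uncalled. Klrg1 went from -4.05, -5.23 and -3.67 to -3.04, -3.93 and -2.58, higher by 1.02, 1.30 and 1.1 in the 3 mice. The shift was even across mice, while the levels of the mice themselves overlapped. The change was 1.14 (95% interval -0.19 to 2.46; limma, adjusted p = 1), and with the mouse as a block the adjusted p was 0.147. The lowest and highest adjusted p over its 25 alternatives were 0.147 and 1.

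Cd244a went to -3.80, -3.48 and -3.76 with inhibitors, higher by 0.47, 0.73 and 0.44, and the 2 wild-type groups did not overlap (change 0.54, 95% interval -0.23 to 1.32). Tyrobp, at -4.73, -3.75 and -4.72, and Fcer1g, at -2.35, -2.54 and -2.15, were also higher in 3 of 3 mice, by 0.08 to 0.34 and 0.04 to 0.32. Klrd1, at 0.80, 1.89 and 1.25, and Klrb1c, at -3.73, -3.39 and -3.91, were higher in 2 of 3 mice. So was Klrk1, at -6.77, -6.71 and -6.04, with 2 of 3 inhibitor arrays well above background. Klrc1 was well above background on 1 of 3 inhibitor arrays and Ncr1 on 0 of 3, where its measured values were -6.85, -9.29 and -8.90.

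The test of the difference between the miR-29b and inhibitor effects called 0 of the 9 genes (limma, 1 at an unadjusted p under 0.05), against 0.17% of all genes. The smallest adjusted p was that of Klrk1 (difference -2.49 ± 0.88, limma, adjusted p = 0.453). With the mouse as a block, where 5.71% of all genes passed, Klrg1 was called (difference -0.92, limma, adjusted p = 0.0183), while it was not in the fit without the block. The block called 1 of 9 genes, and no other. Of the listed genes 0 passed without the block, and with it 5 of 23 transcription factors and cytokine receptors, 3 of 21 other NK receptors, 2 of 14 NK markers, 2 of 9 ligands, 1 of 25 signalling partners and 1 of 9 B cell markers did.

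Likeness of pattern was measured as the root mean square difference over the 12 arrays between 2 genes, each centred on its own mean, among genes with a value on all arrays. The rule used the same levels as above, so the lists are a description. Nearest to Tyrobp were Tnfrsf26 (0.46), Ifnlr1 (0.46) and Camk2n1 (0.51), where Tyrobp itself varied by 1.53 around its mean. Nearest to Fcer1g were Lpin1 (0.23), Ak1 (0.24) and Ctbp2 (0.24), against 0.67 for its own variation. For Cd244a they were Apol7a (0.28), Klhl30 (0.29) and the Ly49 gene Klra16 (0.29), against 0.92. Klrd1 was nearest to Fcgr3 (0.27), Actn2 (0.31) and Cxcr6 (0.33), against 1.61, so that the NK marker Fcgr3 followed Klrd1 most closely of all genes compared. Klrb1c was nearest to Pde2a, Rnf152 and Pon3 (0.26, 0.27 and 0.29, against 0.52) and Klrg1 to Bmp7, Ttc39c and Zfp184 (0.36, 0.37 and 0.46, against 0.86).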

How the data were processed

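Per the file headers, the authors' scanner files held spot intensity extracted with Agilent Feature Extraction 10.5.1.1, background-subtracted, with flags. The authors also deposited log2 values, for which the submitters' processing notes name limma. Levels were log2 processed signal minus the array's 75th percentile, over unflagged non-control spots. Leaving out outlier spots had been listed as an alternative, so keeping them became the alternative. Spots of a probe were averaged. Probes well above background on at least 3 of 12 arrays were kept (32200), and the brightest stood for a gene. The 4 groups were fitted with limma 3.58.1 (R 4.3.3), Benjamini-Hochberg threshold 0.05, tested on simulated data. Normexp (offset 50) used median signals. Arrays paired as 1 mouse by their number correlated in their deviations at 0.42 to 0.75. They also shared a slide, so this correlation cannot show that they came from 1 animal. Named genes were the 9, Dgcr8, up to 6 called genes per list, those with the smallest p (3 for genotype, 2 for miR-29b), the 2 highest markers and 3 nearest genes per member. The members and lists were chosen with earlier results of these data known. With 3 arrays per group, their number limits precision.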

Additional observations from a re-analysis of the deposited data

How the results depend on the processing

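The genotype count of 5 of 9 fell to 3 with normexp background correction and to 3 without both arrays of Dgcr8-deficient mouse 3, and it ran from 3 to 5 when 1 array at a time was left out. The miR-29b count of 0 became 1 (Klrk1) with the authors' log2 values. The difference of the 2 effects gave 1 call (Klrg1) with the mouse as a replicate block and 0 without, and the block changed no other call of the 9 genes. In all runs that left out 1 array the miR-29b, inhibitor and difference counts stayed at 0. With normexp the genotype difference of Clec4d turned to -0.12. Of 35 named list genes called between genotypes, 19 were called in every alternative run, and of 4 called with miR-29b, 0 were. Klrk1, Klrc1 and Ncr1 were not tested when probes had to be well above background on all 12 arrays. Signal near background limits Klrk1, Klrc1 and Ncr1. The cause of these changes was not tested.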
